A study of Mus musculus with 27 samples.

Results

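The 7 genes described here act in the fusion of myoblasts and in the repair of the muscle fibre membrane: Mymk, Cdh15, Dock1 and Myof for fusion, and Dysf, Trim72 and Cav3 for repair. They are 7 of the 54532 genes in the expression table, found by their symbols, and they were chosen from measured values of these same samples. Their levels are therefore given as a description, with no test. Muscle fibres form when mononucleated myoblasts adhere and merge their membranes, a step that in adult muscle follows injury and activation of satellite cells. Fibres also reseal tears in their surface membrane through vesicles that gather at the wound, a process that fails in several muscular dystrophies.

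The samples were tibialis anterior muscles of male C57BL/6 mice, 8 weeks old, with polyA RNA sequenced in bulk. Injured muscles had undergone volumetric muscle loss (VML), in which 40% of the muscle was excised, and were taken 3, 7, 14 or 21 days later. Uninjured (control), day 3 and day 21 groups held 5 muscles each, and day 7 and day 14 groups held 6 each. Sources differ on whether 1 or both legs were operated on (unilateral in the sample descriptions, bilateral in the methods of the study). Muscles from the same mouse may therefore be among the samples, and p-values measure the spread between these samples. Uninjured muscle held the fibre markers at high levels, with Acta1, the actin of skeletal fibres, at a mean of 32612 FPKM. FPKM is the number of fragments of a gene divided by its length in kilobases and by the sequencing depth. FPKM multiplied by gene length and by 1 such factor per sample gave whole reads, within 0.1, in 100% of values above 0. The depth of the samples could therefore be read from the table. It ran from 14376395 to 24436763 reads, and the median sample had 17398586.

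Several libraries did not lie nearest to their own group. By distance to the group means of log2(FPKM + 1) over 14630 genes, 9 of the 27 samples were nearer to another group than to the other samples of their own. Day 3 replicate 5 lay nearest to day 7, and day 7 replicate 5 lay nearest to day 3. Day 7 replicate 3 lay nearest to uninjured muscle and day 7 replicate 6 to day 21. The others were day 14 replicate 1, nearest to day 7, day 14 replicates 3 and 6, nearest to day 21, and day 21 replicates 3 and 5, nearest to day 14.

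Mymk encodes myomaker, a membrane protein of myoblasts that is required for fusion. In the uninjured muscles Mymk measured 0.0994, 0.192, 0.620, 0.161 and 0.136 FPKM, which were 2 to 11 reads per sample. At day 3 it measured 94.8, 71.0, 88.3, 89.9 and 23.6 FPKM. All day 3 samples lay above all uninjured ones, and replicate 5 lay far below the other samples of day 3. The mean was 0.242 ± 0.214 FPKM (SD, n = 5) in uninjured muscle and 73.5 ± 29.3 (SD, n = 5) at day 3, or 86.0 ± 10.4 (SD, n = 4) without replicate 5. At day 7 the lowest, median and highest samples were 0.583, 21.4 and 40.4 FPKM, with a mean of 19.8 ± 16.7 (SD, n = 6). Replicate 3, at 0.583 FPKM, fell within the uninjured range, and replicate 6 measured 1.75 FPKM. The other day 7 samples lay between 15.2 and 40.4 FPKM. At day 14 the samples ranged from 6.18 to 19.3 FPKM around a median of 17.1, with a mean of 15.1 ± 4.88 (SD, n = 6). At day 21 they measured 11.5, 17.995, 9.08, 7.53 and 3.56 FPKM, with a mean of 9.94 ± 5.35 (SD, n = 5). Every sample of day 14 and day 21 thus lay above the highest uninjured sample. In order of mean level, day 3, day 7, day 14 and day 21 overlapped with their neighbours, while day 21 and uninjured muscle did not.

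On the log2(FPKM + 1) scale, which understates the change of genes with low values, the fitted difference of Mymk from uninjured muscle was 5.77 ± 0.65 (SE) at day 3. It was 3.28 ± 0.62 (SE) at day 7, 3.63 ± 0.62 (SE) at day 14 and 3.00 ± 0.65 (SE) at day 21. Without day 3 replicate 5 the day 3 difference was 6.14. At day 7 it was 3.86 without replicate 3, 2.92 without replicate 5 and 4.54 without both replicates 3 and 6, a choice made after seeing the values. The filter on low values asked for an FPKM of 0.5 or more in 5 or more samples, whatever their group. Of the 5 uninjured samples, 1 reached 0.5 FPKM for Mymk, 0 for Myof and 2 for Dock1, so these 3 genes passed through their injured samples. These are bulk samples, in which fewer cells of a type and less RNA per cell cannot be told apart.

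Cdh15 encodes M-cadherin, a calcium-dependent adhesion protein of satellite cells and myoblasts. Its uninjured samples measured 8.04, 6.51, 7.58, 7.12 and 9.18 FPKM, and its day 3 samples 19.9, 16.02, 23.2, 27.1 and 5.49 FPKM. At day 3, 4 of the 5 samples lay above the uninjured range and replicate 5 lay below it. The day 3 mean was 18.3 ± 8.25 FPKM (SD, n = 5), or 21.5 ± 4.71 (SD, n = 4) without replicate 5, against 7.68 ± 1.01 (SD, n = 5) in uninjured muscle. At day 7 the lowest, median and highest samples were 6.08, 6.51 and 18.1 FPKM. The highest was replicate 5, and the day 7 mean was 8.39 ± 4.75 (SD, n = 6) with it and 6.45 ± 0.336 (SD, n = 5) without it. The Cdh15 level was lower than in uninjured muscle at the later times. Day 14 samples ranged from 2.62 to 6.59 FPKM with a median of 4.43, and 5 of 6 lay below all uninjured samples. Day 21 samples measured 4.45, 3.33, 5.69, 5.16 and 4.41 FPKM, all below the uninjured range. The fitted log2 differences of Cdh15 from uninjured muscle after 3, 7, 14 and 21 days were 1.01 ± 0.30, 0.01 ± 0.29, -0.70 ± 0.29 and -0.64 ± 0.30 (SE), in that order. With 1 sample left out, the day 7 value ran from -0.21 without day 7 replicate 5 to 0.07 without day 7 replicate 2.

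Dock1 encodes a guanine nucleotide exchange factor that works with Elmo proteins to activate the small GTPase Rac during fusion. It was a low gene here, at 0.443, 0.417, 0.475, 0.514 and 0.886 FPKM in uninjured muscle, although its length of 9330 bases gave 52 to 121 reads per sample. At day 3 it measured 0.966, 1.13, 1.21, 1.58 and 1.41 FPKM, all above the uninjured samples. At day 7 the lowest, median and highest samples were 0.755, 1.25 and 2.02 FPKM, and the lowest of these, replicate 3, fell within the uninjured range. The mean was 1.26 ± 0.240 FPKM (SD, n = 5) at day 3 and 1.36 ± 0.518 (SD, n = 6) at day 7, or 1.23 ± 0.456 (SD, n = 5) without day 7 replicate 5, and these differed by less than their spread. The means of day 14 (0.656 ± 0.335, SD, n = 6) and day 21 (0.650 ± 0.228, SD, n = 5) lay within the spread of uninjured muscle (0.547 ± 0.193, SD, n = 5). The fitted log2 differences of Dock1 after 3, 7, 14 and 21 days were 0.55 ± 0.15, 0.59 ± 0.15, 0.08 ± 0.15 and 0.09 ± 0.15 (SE), in that order. The day 3 and day 7 values were both 0.52 without replicate 5 of the day. With 1 sample left out, the day 14 value ran from 0.01 without day 14 replicate 5 to 0.16 without uninjured replicate 5, and the day 21 value from 0.02 without day 21 replicate 5 to 0.16 without uninjured replicate 5.

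Myof encodes myoferlin, a ferlin with C2 domains that bind membranes, known from myoblast fusion and also present in other cells. Its uninjured samples measured 0.197, 0.323, 0.250, 0.361 and 0.244 FPKM, from 33 to 70 reads each. The day 3 samples measured 3.05, 2.66, 4.30, 4.60 and 1.74 FPKM, with none in the uninjured range. At day 7 the lowest, median and highest samples were 0.857, 1.27 and 5.07 FPKM. The highest was again replicate 5, and without it the day 7 mean was 1.19 ± 0.290 (SD, n = 5) in place of 1.84 ± 1.60 (SD, n = 6). Day 14 samples ranged from 0.504 to 1.17 FPKM, all above the uninjured ones, and 4 of 5 day 21 samples (0.687, 0.673, 0.426, 0.253 and 0.718 FPKM) did so too. The order of means was day 3 (3.27 ± 1.18, SD, n = 5), day 7, day 14 (0.827 ± 0.225, SD, n = 6), day 21 (0.551 ± 0.203, SD, n = 5) and uninjured (0.275 ± 0.0659, SD, n = 5), with overlap between each pair of neighbours. The fitted log2 differences of Myof after 3, 7, 14 and 21 days were 1.70 ± 0.22, 1.02 ± 0.22, 0.51 ± 0.22 and 0.27 ± 0.22 (SE), in that order. Without day 7 replicate 5 the day 7 difference was 0.77.

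**Figure D1:**
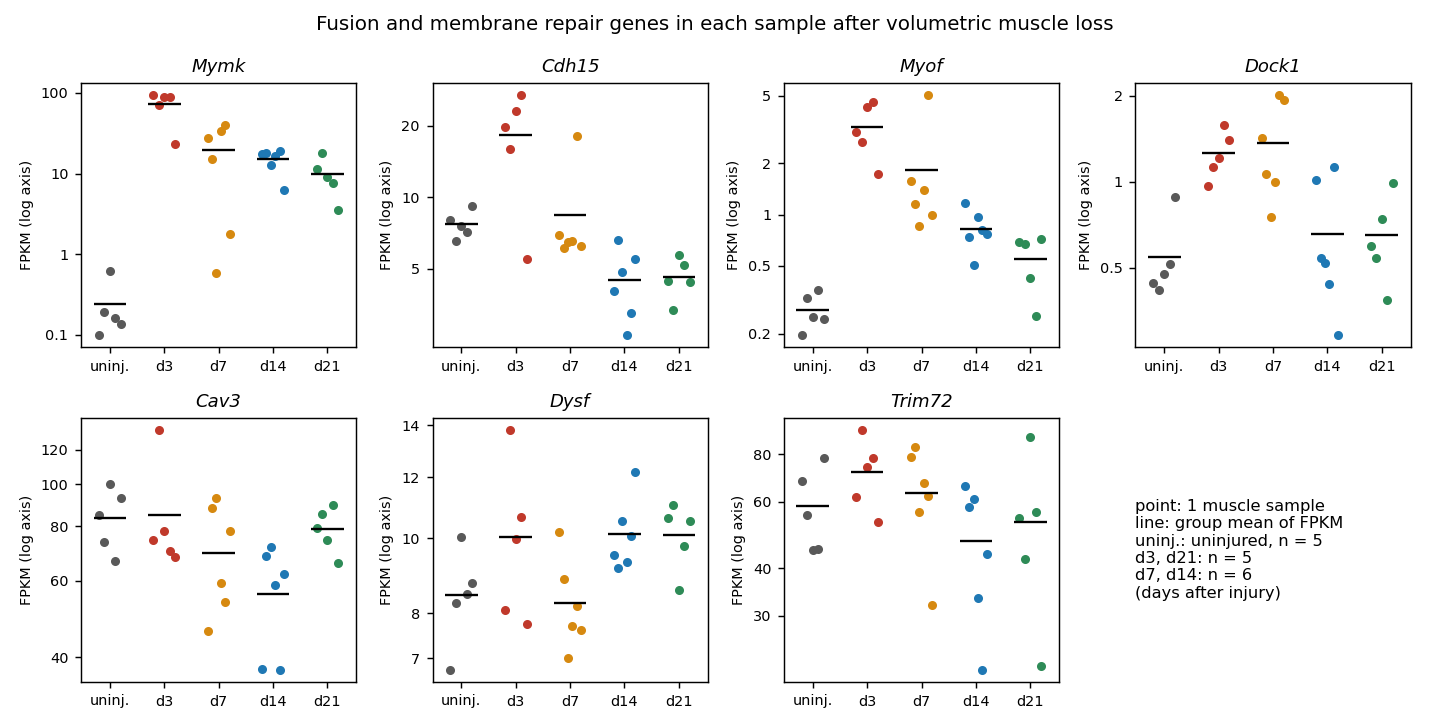
FPKM of each of the 7 genes in each muscle sample, on log axes with a separate range for each gene, for uninjured muscle and 3, 7, 14 and 21 days after injury; points are samples and lines are group means. Mymk lies between 23.6 and 94.8 FPKM at day 3 and at most at 0.620 FPKM in uninjured muscle, while the groups of Cav3, Dysf and Trim72 overlap.

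Dysf encodes dysferlin, a ferlin of the fibre membrane that is needed for resealing and is mutated in limb-girdle muscular dystrophy. Uninjured samples measured 6.76, 8.25, 10.05, 8.48 and 8.75 FPKM, and day 3 samples 8.07, 13.8, 9.98, 10.6 and 7.76 FPKM, so that both groups overlapped. The lowest and highest Dysf samples were 7.01 and 10.2 FPKM at day 7, 9.15 and 12.2 at day 14, and 8.56 and 11.04 at day 21. Group means of Dysf spanned 8.26 to 10.1 FPKM, with uninjured muscle at 8.46 ± 1.18 (SD, n = 5), and neighbours in their order all overlapped. Its fitted log2 differences from uninjured muscle after 3, 7, 14 and 21 days were 0.21 ± 0.13, -0.03 ± 0.13, 0.24 ± 0.13 and 0.24 ± 0.13 (SE), in that order. With 1 sample left out, the day 3 value ran from 0.10 without day 3 replicate 2 to 0.28 without day 3 replicate 5, and the day 7 value from -0.10 without uninjured replicate 1 to 0.03 without uninjured replicate 3.

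Trim72 encodes MG53, a tripartite motif protein of striated muscle that gathers vesicles at membrane wounds. Its uninjured samples measured 68.0, 55.4, 44.7, 45.1 and 78.5 FPKM, and its day 3 samples 61.6, 92.9, 74.1, 78.1 and 53.1 FPKM. The means were 58.3 ± 14.7 FPKM (SD, n = 5) in uninjured muscle, 72.0 ± 15.3 (SD, n = 5) at day 3, 63.4 ± 18.5 (SD, n = 6) at day 7, 47.3 ± 17.5 (SD, n = 6) at day 14 and 52.9 ± 24.4 (SD, n = 5) at day 21. All neighbouring groups overlapped. The day 21 samples were the most scattered, at 54.3, 42.4, 89.2, 56.4 and 22.1 FPKM. The fitted log2 differences of Trim72 from uninjured muscle after 3, 7, 14 and 21 days were 0.31 ± 0.31, 0.09 ± 0.30, -0.36 ± 0.30 and -0.24 ± 0.31 (SE), in that order. With 1 sample left out, the day 3 value ran from 0.21 without day 3 replicate 2 to 0.42 without uninjured replicate 5, and it was 0.41 without day 3 replicate 5. The day 7 value ran from -0.00 without day 7 replicate 2 to 0.27 without day 7 replicate 6. The day 14 value ran from -0.47 without day 14 replicate 1 to -0.16 without day 14 replicate 5, and the day 21 value from -0.45 without day 21 replicate 3 to 0.04 without day 21 replicate 5.

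Cav3 encodes caveolin-3, the muscle form of the protein that shapes caveolae, the small pits of the plasma membrane. It measured 85.1, 73.6, 100.3, 66.6 and 93.1 FPKM in uninjured muscle and 74.3, 133.4, 77.9, 70.4 and 68.0 FPKM at day 3. Apart from day 3 replicate 2, at 133.4 FPKM, the day 3 samples lay within the uninjured range. The mean level was lowest at day 14, at 56.0 ± 15.03 FPKM (SD, n = 6), where 4 of 6 samples lay below all uninjured ones. It was 83.7 ± 13.8 (SD, n = 5) in uninjured muscle and 79.0 ± 9.31 (SD, n = 5) at day 21. The fitted log2 differences of Cav3 after 3, 7, 14 and 21 days were -0.01 ± 0.22, -0.29 ± 0.21, -0.60 ± 0.21 and -0.08 ± 0.22 (SE), in that order. With 1 sample left out, the day 3 value ran from -0.19 without day 3 replicate 2 to 0.05 without uninjured replicate 3, and it was also 0.05 without day 3 replicate 5. The day 7 value ran from -0.38 without day 7 replicate 3 to -0.19 without day 7 replicate 1, and the day 21 value from -0.15 without uninjured replicate 4 to -0.01 without uninjured replicate 3.

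The scaling between samples matters for such small differences. The reads to which the deposited FPKM were scaled were 0.747 to 1.48 times the totals of the samples. When FPKM of each sample were rescaled to 1 common sum, this moved the median log2 difference of all tested genes from 0.01 to 0.51 at day 3, from 0.03 to 0.48 at day 7, from 0.02 to 0.29 at day 14 and from 0.01 to 0.12 at day 21. For day 21 against day 3 it moved from -0.00 to -0.41. Quantile normalization moved it to -0.12 at day 3. Relative to that median, Cav3 at day 3 was -0.03 with the deposited scaling, 0.29 with the common sum and 0.32 with quantile normalization, so its direction there depends on the scaling. At day 14 Cav3 was -0.62, -0.42 and -0.29 relative to the median under these scalings. Trim72 at day 3 was 0.30, 0.61 and 0.63 relative to the median, and Dysf was 0.20, 0.45 and 0.30. At day 14 Trim72 was -0.38, -0.18 and -0.02 relative to the median, and its log2 difference itself turned from -0.36 to 0.11 with the common sum. Mymk at day 3 was 5.76, 5.76 and 5.80, Cdh15 0.99, 1.25 and 1.10, Myof 1.69, 1.61 and 1.61, and Dock1 0.54, 0.42 and 0.46. At day 14 Dock1 changed direction with the scaling, at 0.06, -0.02 and -0.03 relative to the median. So did Cdh15 at day 7 (-0.02, 0.19 and 0.09), Dysf at day 7 (-0.06, 0.15 and 0.05), and Cav3 at day 7 (-0.32, -0.05 and 0.03) and day 21 (-0.09, 0.00 and 0.07). The lower Cdh15 of day 14 (-0.72, -0.58 and -0.66) and day 21 (-0.65, -0.57 and -0.59) kept its direction under these 3 scalings. Its log2 difference itself moved with the common sum from -0.70 to -0.29 at day 14 and from -0.64 to -0.45 at day 21.

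Since Myof and Dysf are both ferlins, the share of Myof in the summed FPKM of the pair was computed within each sample, where the scaling between samples cancels. In uninjured muscle Myof made up 2.83%, 3.77%, 2.43%, 4.08% and 2.71% of the pair. At day 3 its share was 27.4%, 16.1%, 30.1%, 30.2% and 18.3%, above every uninjured sample. The mean share was 3.16% ± 0.719 (SD, n = 5) in uninjured muscle and 24.4% ± 6.71 (SD, n = 5) at day 3. At day 7 the lowest, median and highest shares were 10.9%, 12.5% and 38.3%, with day 7 replicate 5 the highest of all samples. Day 14 shares ran from 4.56% to 10.9%, and day 21 shares were 6.07%, 5.75%, 4.74%, 2.53% and 6.38%. Day 21 replicate 4 lay within the uninjured range and the other day 21 samples above it.

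**Figure D2:**
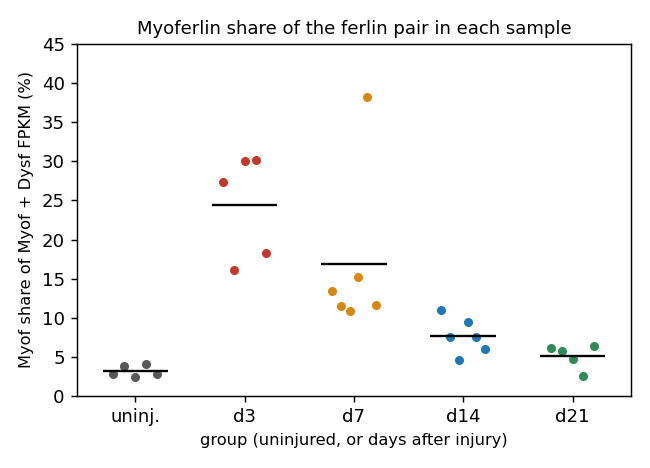
Myof FPKM as a percentage of Myof plus Dysf FPKM in each sample, on a linear axis from 0, for uninjured muscle and 3, 7, 14 and 21 days after injury; points are samples and lines are group means. The mean share is 3.16% in uninjured muscle and 24.4% at day 3, and day 7 replicate 5 stands at 38.3%.

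The 14630 genes that passed the filter on low values, the 7 genes included, entered 1 fit with limma on log2(FPKM + 1), two-sided. Genes were called where the p adjusted by Benjamini-Hochberg within a comparison was under 0.05. Of all tested genes, 23.4% were called higher and 19.8% lower at day 3, 15% and 14.4% at day 7, 9.02% and 11.3% at day 14, and 1.74% and 1.69% at day 21, each against uninjured muscle. For day 21 against day 3 these were 9.23% higher and 16.2% lower. The comparisons with uninjured muscle share its 5 samples. Higher calls made up 54.1% of calls at day 3, 51.0% at day 7, 44.5% at day 14, 50.8% at day 21 and 36.2% between day 21 and day 3. With the common sum per sample they made up 95.5%, 96.8%, 94.0%, 85.7% and 3.37%. With quantile normalization they made up 42.6% at day 3 and 50.04% between day 21 and day 3. By the same limma rule 4 of the 7 genes would be called higher and 0 lower at day 3, 3 and 0 at day 7, 1 and 1 at day 14, 1 and 0 at day 21, and 0 and 4 for day 21 against day 3. At an unadjusted p under 0.05 the higher and lower counts were 4 and 0, 3 and 0, 2 and 2, 1 and 1, and 0 and 4. Since the genes were selected from these measured values, nothing is read from these counts.

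All lists below, markers included, were chosen with earlier results of these data known. Their counts, medians and p-values are therefore a description. Among other genes of myoblast recognition, adhesion and fusion, 37 of 38 listed symbols were in the table and 31 passed the filter on low values. At day 3, 15 of the 31 were higher and 4 lower, and 12 did not pass. Mymx, Adam12, Elmo1 and Cdh2 were under 0.5 FPKM in all uninjured samples and so passed the filter through injured samples, and these 4 are among the higher calls of day 3 and day 7. The day 7 call of Elmo1 was lost, with the adjusted p in parentheses, without uninjured replicate 2 (0.08), uninjured replicate 4 (0.0583), uninjured replicate 5 (0.0894), day 7 replicate 1 (0.0595), day 7 replicate 4 (0.0641) or day 7 replicate 5 (0.111), and that of Cdh2 without uninjured replicate 1 (0.0594), uninjured replicate 2 (0.0635), uninjured replicate 3 (0.0645), uninjured replicate 5 (0.0791), day 7 replicate 4 (0.0802) or day 7 replicate 5 (0.115). Both were also lost with quantile normalization (0.231 and 0.209), without a filter (0.0745 and 0.0758) and in a fit of only the groups compared (0.103 and 0.0676). The median log2 difference of the list was 0.29, beside 0.01 for all tested genes. At day 7, 9 were higher and 4 lower (median 0.19, beside 0.03). At day 14, 5 were higher and 3 lower (median 0.04, beside 0.02). At day 21, limma called 0 higher and 2 lower (median 0.09, beside 0.01), with 5 higher and 4 lower at an unadjusted p under 0.05, and 0 with voom weights on the recovered reads. Against day 3, 9 of the 31 were lower at day 21 and 0 were higher by limma, with 2 higher at an unadjusted p under 0.05 and 1 higher with voom weights. In that comparison, 8 were lower and 2 higher with quantile normalization (14.4% and 14.4% of all tested genes). With the common sum per sample, 19 were lower and 0 higher (33.1% and 1.16% of all). With the common sum per sample, 23 were higher and 0 lower at day 7 (median 0.75, beside 0.48). At day 14, 7 were then higher and 0 lower (median 0.45, beside 0.29), so that none of the lower calls of these times was kept. Of all tested genes, 43.1% were then higher and 1.43% lower at day 7, and 11.5% and 0.731% at day 14. Quantile normalization kept 5 of the 9 higher and 2 of the 4 lower calls of day 7, and 3 of the 5 higher and all 3 lower calls of day 14. Voom weights kept 8 of the 9 and 4 of the 5 higher calls and all lower calls of these times. All were kept with median-ratio scaling, in which FPKM are divided by the median ratio of a sample to the geometric mean of all samples. The 13 calls of day 7 became 8 without day 7 replicate 4, 7 without day 7 replicate 5 and 8 without both day 3 replicate 5 and day 7 replicate 5. With 1 sample left out, the day 7 call of Jam2 was lost in 9 of 27 fits and the day 3 call of Boc in 7. The 9 calls between day 21 and day 3 became 5 without day 3 replicate 3 or without day 3 replicate 4.

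Mymx encodes myomixer, the partner of myomaker in fusion, and it had the largest log2 difference of the list at day 3. Its uninjured samples were listed at 0, 0, 0, 0 and 0.466 FPKM, all under the minimum of the filter, and its day 3 samples measured 52.4, 29.6, 51.1, 52.9 and 8.42 FPKM. At day 3, 5 of 5 samples lay above the uninjured range, and the log2 difference was 4.96 ± 0.79 (SE, limma adjusted p = 2.76e-05). At day 7, Mymx was listed at 0 FPKM in replicate 6 and at 0.0572 FPKM in replicate 3, the same samples in which Mymk was low. The day 7 difference was 2.40 (limma adjusted p = 0.0188, 4 of 6 samples above the uninjured range), and its call was lost without day 7 replicate 4 (0.0529) or day 7 replicate 5 (0.058), with the adjusted p in parentheses, and with voom weights (0.12). Mymx was also higher at day 14, by 3.42 (limma adjusted p = 0.00317, 6 of 6 samples above), a call lost with voom weights (0.0625). At day 21 the difference was 2.67 (limma adjusted p = 0.0551, 4 of 5 samples above), which did not pass. It passed without day 3 replicate 5 (0.0486), day 7 replicate 3 (0.0344), day 7 replicate 5 (0.0392), day 7 replicate 6 (0.0362) or day 21 replicate 5 (0.0174). It also passed with a pseudocount of 0.1 (0.0262) or 0.5 (0.0447), with a filter at 1 FPKM (0.0496), and in a fit of only the groups compared (0.0312).

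Adam12, a metalloprotease-disintegrin of regenerating muscle, rose from 0.0339 ± 0.0268 FPKM (SD, n = 5) to 2.07 ± 0.206 (SD, n = 5) at day 3, a log2 difference of 1.57 (limma adjusted p = 2.64e-06, 5 of 5 samples above the uninjured range), from a level under the minimum of the filter. Il4ra encodes a receptor chain for interleukin-4, a cytokine that recruits myoblasts to growing myotubes. It rose from 1.57 ± 0.279 to 7.93 ± 3.76 FPKM (SD, n = 5 each), a log2 difference of 1.70 (limma adjusted p = 0.000284, 5 of 5 samples above). Cd9 and Cd81, tetraspanins that organize membrane proteins, rose at day 3 as well. The log2 difference of Cd9 was 1.29 (limma adjusted p = 0.000271, 5 of 5 samples above) and that of Cd81 was 0.56 (limma adjusted p = 0.00377, 5 of 5 samples above). Elmo1, the partner of Dock1, rose from 0.334 ± 0.125 to 1.03 ± 0.222 FPKM (SD, n = 5 each), a log2 difference of 0.61 (limma adjusted p = 0.00097, 5 of 5 samples above), also from uninjured levels under that minimum. Rac1, the GTPase that Dock1 activates, stood at 23.7 ± 4.18 FPKM in uninjured muscle and 28.8 ± 6.11 at day 3 (SD, n = 5 each), a log2 difference of 0.26 that did not pass (limma adjusted p = 0.391, 4 of 5 samples above) except with the common sum per sample (0.0256). Dock5, a relative of Dock1, did not pass the filter on low values, with means of 0.0274 FPKM in uninjured muscle and 0.325 FPKM at day 3.

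The genes of the fusion list that fell at day 3 were Tmem182, Jam2, Stab2 and Iqsec1, and all 4 calls were kept with quantile normalization, with median-ratio scaling and with voom weights. None of the 4 passed with FPKM rescaled to a common sum, where 2.2% of all tested genes were lower and the difference of Iqsec1 turned to 0.20. The 15 higher calls were all kept with the common sum and with median-ratio scaling, and 14 of them with quantile normalization and with voom weights. Tmem182, a membrane protein of muscle that restrains fusion, fell from 108 ± 7.68 FPKM (SD, n = 5) to 49.4 ± 10.4 (SD, n = 5), a log2 difference of -1.13 (limma adjusted p = 0.000774, 5 of 5 samples below the uninjured range). It stood at 77.7 ± 22.01 FPKM (SD, n = 5) at day 21, which did not pass (log2 difference -0.51, limma adjusted p = 0.251, 4 of 5 samples below). Jam2, a junctional adhesion molecule, fell from 6.63 ± 0.969 to 3.37 ± 0.954 FPKM (SD, n = 5 each), a log2 difference of -0.82 (limma adjusted p = 0.00284, 5 of 5 samples below). Its relative Jam3 measured 3.61 ± 0.885 and 4.49 ± 0.497 FPKM (SD, n = 5 each), and its log2 difference of 0.27 did not pass (limma adjusted p = 0.367, 0 of 5 samples above) except with the common sum (0.0021). Fer1l5, a ferlin of myoblasts, measured 0.664 FPKM in uninjured muscle and 0.396 at day 3, and its log2 difference of -0.24 did not pass (limma adjusted p = 0.0976, 2 of 5 samples below). It passed with quantile normalization (0.00294) and without uninjured replicate 4 (0.0427), and its direction turned with the common sum.

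Stab2, a scavenger receptor, and Iqsec1, an exchange factor for the small GTPase Arf6, were the 2 fusion list genes called at day 21. The log2 difference of Stab2 was -0.52 at day 3 (limma adjusted p = 0.00121, 5 of 5 samples below the uninjured range) and -0.45 at day 21 (limma adjusted p = 0.0388, 4 of 5 samples below). That of Iqsec1 was -0.48 at day 3 (limma adjusted p = 0.00367, 5 of 5 samples below) and -0.47 at day 21 (limma adjusted p = 0.0421, 5 of 5 samples below). Neither day 21 call passed with the common sum per sample, with voom weights or without a filter, and both were kept with median-ratio scaling. That of Iqsec1 did not pass with quantile normalization (0.0603). That of Stab2 did not pass with a pseudocount of 0.1 (0.0589), with the replicate number (0.0506) or letter (0.0535) as a block, or in a fit of only the groups compared (0.0608). Each was also lost when 1 of several samples was left out. The Stab2 call was lost, with the adjusted p in parentheses, without uninjured replicate 1 (0.087), uninjured replicate 3 (0.0652), uninjured replicate 4 (0.121), uninjured replicate 5 (0.0684), day 21 replicate 1 (0.0868), day 21 replicate 2 (0.112), day 21 replicate 3 (0.0533) or day 21 replicate 4 (0.0718). The Iqsec1 call was lost without uninjured replicate 1 (0.102), uninjured replicate 2 (0.07), uninjured replicate 4 (0.0678), uninjured replicate 5 (0.115), day 3 replicate 2 (0.0503), day 21 replicate 1 (0.0808), day 21 replicate 2 (0.14) or day 21 replicate 4 (0.0522).

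Of 34 other listed genes of membrane repair, all were in the table and 31 were tested. At day 3, 14 were higher and 5 lower (median log2 difference 0.26, beside 0.01 for all tested genes). At day 7, 9 were higher and 4 lower (median 0.15, beside 0.03), and at day 14, 7 were higher and 6 lower (median -0.05, beside 0.02). At day 21, limma called 2 higher and 0 lower (median 0.04, beside 0.01), with 8 higher and 4 lower at an unadjusted p under 0.05, and 1 higher and 0 lower with voom weights. Against day 3, 10 of the 31 were lower and 1 higher at day 21. In that comparison, 18 were lower and 0 higher with the common sum per sample (33.1% and 1.16% of all tested genes). Quantile normalization and median-ratio scaling each gave 10 lower and 3 higher. The 5 lower calls at day 3 were all kept with quantile normalization, with median-ratio scaling and with voom weights. None was kept with the common sum per sample (2.2% of all tested genes lower). Of the 14 higher calls, quantile normalization kept 13 and the other 3 settings kept all. With the common sum, 43.1% of all tested genes were higher and 1.43% lower at day 7, and 11.5% and 0.731% at day 14. Of the list, 21 were then higher and 0 lower at day 7 (median 0.72, beside 0.48). At day 14, 10 were higher and 0 lower (median 0.37, beside 0.29), so that none of the 4 and 6 lower calls of these times was kept. Quantile normalization kept 3 of the 4 and 4 of the 6, and median-ratio scaling and voom weights kept all of both. The higher calls of these times were kept under all 4 settings. With 1 sample left out, the day 14 call of Chmp4b was lost in 17 of 27 fits, that of Vps4a in 9 and that of Capns1 in 6. The day 3 call of Capns1 was lost in 8 of 27. One gene of the list, Pla2g4a, was under 0.5 FPKM in all uninjured samples and was among the higher calls of day 3 and day 7. The 2 calls of day 21 became 4 without day 7 replicate 5 and 4 without day 7 replicate 6. In a fit of only the groups compared they became 11. With the replicate letter as a block they became 7, and with the replicate number 4. They became 1 without uninjured replicate 1, and 0 without uninjured replicate 3, 4 or 5 or day 21 replicate 1, 2 or 5.

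The annexins and their S100 partners bind calcium and membranes at the wound. Anxa1 measured 4.40, 4.68, 3.37, 3.30 and 3.33 FPKM in uninjured muscle and 36.7, 26.96, 58.2, 48.4 and 24.2 FPKM at day 3. All day 3 samples lay above the uninjured ones, and the log2 difference was 2.99 (limma adjusted p = 8.99e-08). Anxa2 rose from 11.6 ± 1.36 to 101 ± 27.4 FPKM (SD, n = 5 each), a log2 difference of 2.97 (limma adjusted p = 1.81e-07, 5 of 5 samples above the uninjured range). S100a10, the partner of Anxa2, rose from 23.2 ± 4.45 to 138 ± 31.3 FPKM (SD, n = 5 each), a difference of 2.51 (limma adjusted p = 5.07e-07, 5 of 5 samples above). S100a11, a partner of Anxa1, rose from 44.4 ± 7.07 to 334 ± 70.1 FPKM (SD, n = 5 each), a difference of 2.87 (limma adjusted p = 4.79e-07, 5 of 5 samples above). Smaller rises were those of Anxa6, at 0.47 (limma adjusted p = 0.011, 4 of 5 samples above), and of Ahnak, a giant protein that binds S100a10 and Anxa2, at 0.54 (limma adjusted p = 0.00197, 5 of 5 samples above).

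At day 21 the 2 repair genes called were Anxa1 and S100a10. The log2 difference of Anxa1 was 1.13 (limma adjusted p = 0.0289, 5 of 5 samples above the uninjured range) and that of S100a10 was 1.02 (limma adjusted p = 0.0417, 5 of 5 samples above). Neither call passed with the common sum per sample (0.191 and 0.123), with quantile normalization (0.0598 and 0.0525) or without a filter (0.0671 and 0.0888), and that of Anxa1 did not pass with voom weights (0.0528). Both were kept with median-ratio scaling. The Anxa1 call was lost, with the adjusted p in parentheses, without uninjured replicate 3 (0.0586), uninjured replicate 4 (0.0725), uninjured replicate 5 (0.07), day 21 replicate 1 (0.0671), day 21 replicate 2 (0.0961) or day 21 replicate 5 (0.0506). The S100a10 call was lost without uninjured replicate 1 (0.0709), uninjured replicate 3 (0.0669), uninjured replicate 4 (0.108), uninjured replicate 5 (0.0932), day 21 replicate 1 (0.0681), day 21 replicate 2 (0.11) or day 21 replicate 5 (0.108).

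The repair genes that fell at day 3 were Capn3, Smpd1, Ano5, Vps4a and Vamp7. Capn3, the calpain of muscle fibres, fell from 30.2 ± 2.62 to 15.5 ± 3.50 FPKM (SD, n = 5 each), a log2 difference of -0.94 (limma adjusted p = 0.000379, 5 of 5 samples below the uninjured range). Ano5, an anoctamin mutated in a limb-girdle dystrophy, fell from 16.6 ± 1.999 to 8.87 ± 2.09 FPKM (SD, n = 5 each), a difference of -0.86 (limma adjusted p = 0.0082, 5 of 5 samples below). Both were still lower at day 14, Capn3 by a log2 difference of -0.84 (limma adjusted p = 0.00317, 6 of 6 samples below) and Ano5 by -0.95 (limma adjusted p = 0.0083, 6 of 6 samples below), and these calls too were lost with the common sum (0.138 and 0.192). At day 21 neither passed, with -0.51 for Capn3 (limma adjusted p = 0.143, 4 of 5 samples below) and -0.55 for Ano5 (limma adjusted p = 0.224, 5 of 5 samples below), although in a fit of only the groups compared both passed (0.0198 and 0.0069), and Capn3 also passed without day 7 replicates 3 and 6 (0.0382). Smpd1, acid sphingomyelinase, fell from 28.04 ± 1.79 to 14.8 ± 1.84 FPKM (SD, n = 5 each) at day 3, a difference of -0.88 (limma adjusted p = 0.000207, 5 of 5 samples below).

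For caveolae, 9 of 9 other genes were tested, and 1 was higher and 2 lower at day 3 (median log2 difference 0.09, beside 0.01 for all tested genes). Cavin3, a coat protein of caveolae, rose from 14.0 ± 2.49 to 40.02 ± 7.62 FPKM (SD, n = 5 each), a difference of 1.45 (limma adjusted p = 2.39e-05, 5 of 5 samples above the uninjured range). Pacsin3, which curves membranes, fell from 75.8 ± 11.98 to 41.3 ± 9.01 FPKM (SD, n = 5 each), a difference of -0.87 (limma adjusted p = 0.0026, 5 of 5 samples below). Cavin2, another coat protein, had a difference of -0.77 (limma adjusted p = 0.00472, 5 of 5 samples below), and these 2 calls were kept with quantile normalization, with median-ratio scaling and with voom weights but not with the common sum per sample, where the difference of Cavin2 turned to 0.01. Cav1, the caveolin of many other cell types, measured 58.1 ± 6.31 FPKM in uninjured muscle and 68.0 ± 19.9 at day 3 (SD, n = 5 each), a difference of 0.19 that did not pass (limma adjusted p = 0.486, 1 of 5 samples above). Cavin1 had a difference of 0.16 (limma adjusted p = 0.382, 3 of 5 samples above) and the muscle-restricted Cavin4 one of -0.11 (limma adjusted p = 0.776, 1 of 5 samples below), whose direction turned with the common sum and with quantile normalization. With the common sum Cav1 (0.00423) and Cavin1 (0.0021) passed.

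Later, 1 caveolae gene was higher and 1 lower at day 7. With the common sum per sample, 4 were higher and 0 lower there (43.1% and 1.43% of all tested genes). The lower call of day 7 was also lost with quantile normalization and was kept with median-ratio scaling and voom weights. By limma, 1 was higher and 0 lower at day 14, with 2 higher and 1 lower at an unadjusted p under 0.05 and 1 higher and 0 lower with voom weights. At day 21, limma called 1 higher and 0 lower, also with 1 higher and 0 lower unadjusted, and 0 with voom weights. The gene called at each of these times was Cavin3, joined at day 7 by Cavin2. The Cavin3 difference at day 21 was 0.82 (limma adjusted p = 0.045, 5 of 5 samples above the uninjured range). That call was lost with the common sum (0.109), with quantile normalization (0.0525), with voom weights (0.058) and without a filter (0.0899), and kept with median-ratio scaling. It was also lost, with the adjusted p in parentheses, without uninjured replicate 1 (0.0676), uninjured replicate 2 (0.106), uninjured replicate 3 (0.054), uninjured replicate 4 (0.115), uninjured replicate 5 (0.0718), day 3 replicate 2 (0.0524), day 3 replicate 3 (0.0549), day 3 replicate 4 (0.0514), day 7 replicate 2 (0.0507), day 21 replicate 1 (0.0693), day 21 replicate 2 (0.103), day 21 replicate 3 (0.054) or day 21 replicate 5 (0.122). The count at day 14 became 2 without day 14 replicate 2. Against day 3, 2 caveolae genes were higher and 1 lower at day 21, and these 3 calls became 1 without day 3 replicate 2, without day 3 replicate 3 or without day 3 replicate 4. In that comparison, 0 were higher and 3 lower with the common sum per sample (1.16% and 33.1% of all tested genes).

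**Figure D3:**
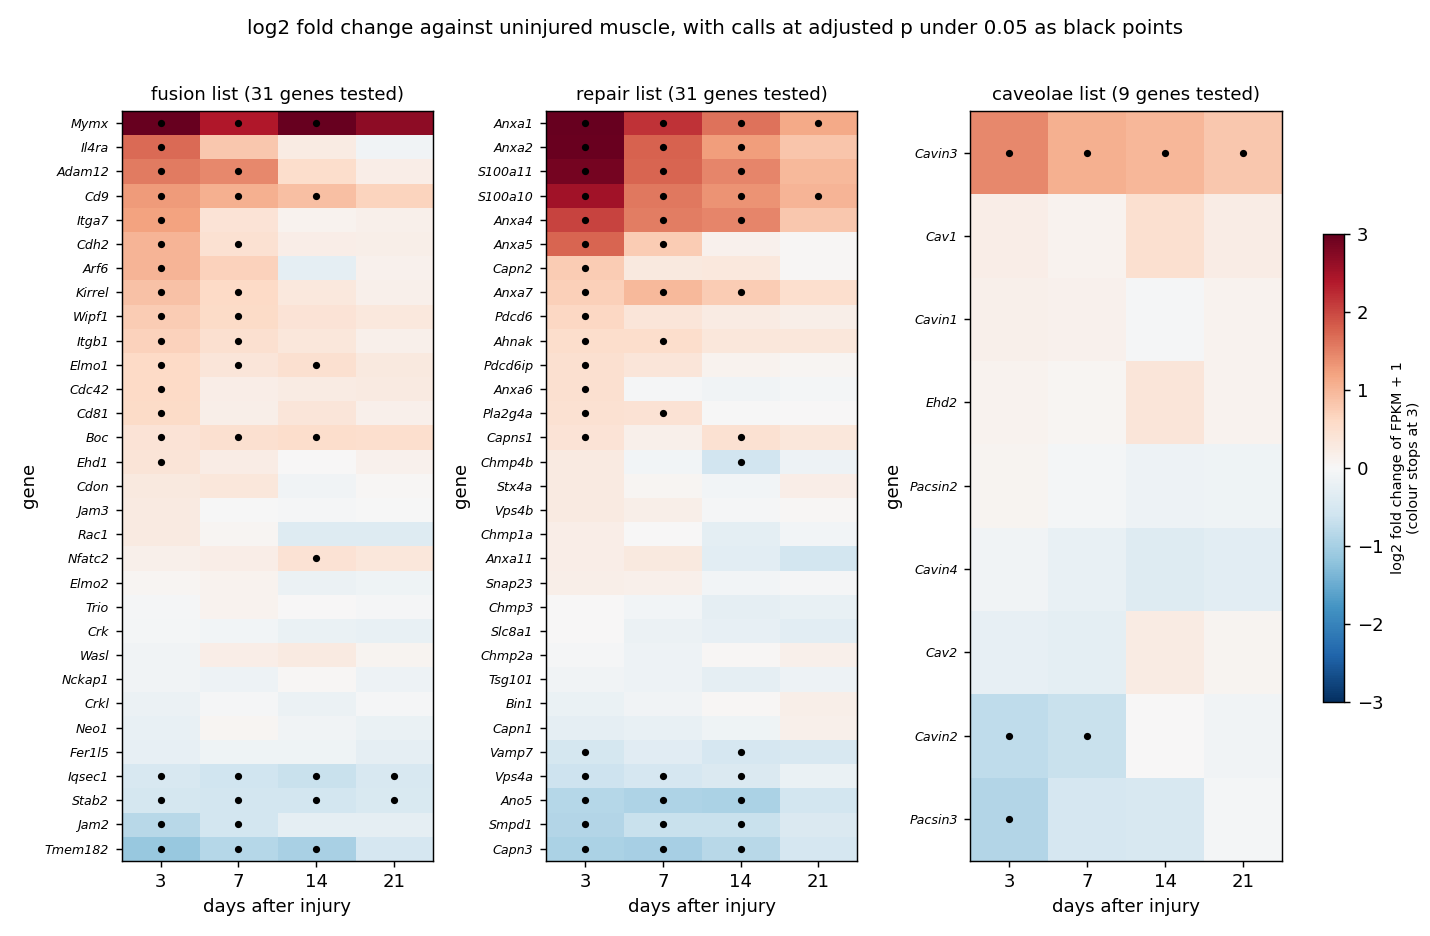
Heat map of log2 fold changes of FPKM + 1 against uninjured muscle for the tested genes of the fusion, repair and caveolae lists, with genes as rows and days after injury as columns; colours stop at 3 in either direction and black points mark limma calls. At day 3 the lists hold 15, 14 and 1 higher and 4, 5 and 2 lower calls, and at day 21 they hold 0, 2 and 1 higher and 2, 0 and 0 lower calls; the lower calls at day 3 pass with quantile normalization, median-ratio scaling and voom weights and not with the common sum per sample.

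Markers of several cell types were counted beside these genes. The myoblast list held Pax7, Myf5, Myod1, Myog, Myh3 and Myh8. Myh3 and Myh8 are myosin heavy chains of newly formed fibres, so the list is not of myoblasts alone. Of these 6 markers, limma called 5, 4, 4 and 2 higher after 3, 7, 14 and 21 days. It called 0 lower at any of these times, also at an unadjusted p under 0.05 and with voom weights. The 5 calls of day 3 were all kept with the common sum per sample and 4 of them with quantile normalization. The 2 calls of day 21 became 0 with the common sum, 1 with voom weights, and 1 without uninjured replicate 1 or 2 or day 21 replicate 1 or 2. The most abundant was Myod1, a transcription factor of myoblasts, in uninjured muscle (19.1 FPKM) and at day 14 and day 21. At day 3 it was Myog (153 FPKM), a factor of differentiating myoblasts, and at day 7 the means of Myog (54.1) and Myod1 (53.0) were close. No marker of the list was at 0 throughout a group. The summed myoblast markers were 21.0, 17.7, 27.3, 25.1 and 24.2 FPKM in uninjured muscle and 362.1, 268.8, 357.4, 373.7 and 148.9 FPKM at day 3. At day 7 they were 206.1, 154.1, 25.9, 260.9, 225.3 and 25.6 FPKM, where the low sums were those of replicates 3 and 6, the samples low in Mymk. At day 14 they ran from 101.5 to 188.2 FPKM, and at day 21 they were 100.4, 127.3, 98.8, 99.8 and 43.7 FPKM. The lowest sum of day 3, day 14 and day 21 belonged to the sample lowest in Mymk in that group.

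Of 6 macrophage markers, limma called 6, 5, 2 and 0 higher after 3, 7, 14 and 21 days. At day 21, 0 passed at an unadjusted p under 0.05 and with voom weights. All 6 calls of day 3 were kept with the common sum and with quantile normalization. Adgre1, Itgam and Ptprc were under 0.5 FPKM in all uninjured samples and passed the filter through injured ones. The 2 calls of day 14 became 1 with quantile normalization, with voom weights, without any 1 of the uninjured samples or without day 14 replicate 1, 2, 4 or 5. The most abundant was Lyz2, and no marker was at 0 throughout a group. Their sums were 16.96, 22.4, 15.97, 21.2 and 24.3 FPKM in uninjured muscle and 1405, 989.1, 1957, 2128 and 307.3 FPKM at day 3. At day 7 they were 251.5, 253.3, 121.2, 405.6, 1990 and 42.8 FPKM. The sum of replicate 5 was thus the highest of day 7, as were its levels of Mymk, Cdh15, Myof and Dock1. Day 3 replicate 5 had the lowest sum of day 3. It also had the lowest levels there of Mymk, Cdh15, Myof, Cav3, Dysf and Trim72. At day 14 the macrophage sums ran from 42.9 to 99.8 FPKM and at day 21 from 30.8 to 55.7.

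Of 8 fibre markers, limma called 7, 3, 1 and 0 lower after 3, 7, 14 and 21 days and 0 higher at any of these times. At an unadjusted p under 0.05 these were 7, 8, 3 and 0 lower and 0 higher, and voom weights gave the same adjusted counts. The 7 calls of day 3 became 4 with the common sum and 2 with quantile normalization, where the median log2 differences of the list were -0.67 (beside 0.51 for all tested genes) and -0.26 (beside -0.12). The 3 calls of day 7 and the 1 of day 14 became 0 under both scalings, and the day 7 median turned to 0.04 with quantile normalization. The 3 calls of day 7 became 0 without uninjured replicate 1 or 5 or day 7 replicate 1, 4 or 5, and 1 without uninjured replicate 2, 3 or 4. They became 6 without day 7 replicate 3 or 6. The 1 call of day 14 was lost without uninjured replicate 5 or day 14 replicate 5. The most abundant was Acta1, and none was at 0. Their sums were 87286, 87519, 101023, 81924 and 98812 FPKM in uninjured muscle and 40913, 47575, 31209, 20252 and 55044 FPKM at day 3. At day 7 they were 30971, 53815, 96754, 37289, 25851 and 88815 FPKM, with the highest sums in replicates 3 and 6. At day 14 they ran from 40478 to 95326 FPKM and at day 21 from 68606 to 105371. Beside these sums, the fitted differences of Dysf, Trim72 and Cav3 at day 3 were 0.21, 0.31 and -0.01 with the deposited scaling. The part of any of these cell types in the levels of the 7 genes was not tested.

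Over the 27 samples, the genes with the pattern most like each of the 7 were found by Pearson correlation of log2(FPKM + 1), as a description. The samples share the injury groups, so the correlation was also taken on deviations from the group means. Mymk was most like Myog (r = 0.97, Spearman 0.95, within groups 0.95), Ncam1 (r = 0.96, Spearman 0.91) and Tubb6 (r = 0.95, Spearman 0.94). Cdh15 was most like Psap (r = 0.97, Spearman 0.91, within groups 0.94), Tpd52 (r = 0.94, Spearman 0.88) and Dut (r = 0.92, Spearman 0.71). Myof was most like Apbb1ip (r = 0.98, Spearman 0.95, within groups 0.95), Myo5a (r = 0.98, Spearman 0.94) and Itgb2 (r = 0.98, Spearman 0.95). The correlation of Mymk with Mymx was 0.95 (within groups 0.90), and that with Cdh15 was 0.39 (within groups 0.37).

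For the other genes the nearest patterns were looser in part. Dock1 was most like Thbd (r = 0.88, Spearman 0.90, within groups 0.81), St6gal1 (r = 0.85, Spearman 0.86, within groups 0.73) and Stk39 (r = 0.83, Spearman 0.82, within groups 0.60). Cav3 was most like Hspb2 (r = 0.89, Spearman 0.85, within groups 0.84), Coa3 (r = 0.88, Spearman 0.85, within groups 0.90) and Mrpl11 (r = 0.87, Spearman 0.84, within groups 0.90). Trim72 was most like Rab5if (r = 0.88, Spearman 0.85, within groups 0.87), Wsb2 (r = 0.87, Spearman 0.75, within groups 0.93) and Gpc1 (r = 0.87, Spearman 0.84, within groups 0.92). Dysf, which varied little, had the weakest likeness, with Gm15385 (r = 0.67, Spearman 0.71, within groups 0.61) and Dync1h1 (r = 0.66, Spearman 0.56, within groups 0.61). The repair genes were little related to each other, with r of -0.05 for Dysf and Trim72 (within groups 0.09). It was 0.07 for Cav3 and Dysf (within groups 0.22) and 0.33 for Cav3 and Trim72 (within groups 0.22).

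The genes lie on 5 chromosomes. In the table, whose positions for all 7 genes equal those of GENCODE M21 on GRCm38, Mymk (ENSMUSG00000009214) lies at chr2:27061636-27072179 on the minus strand and Cdh15 (ENSMUSG00000031962) at chr8:122847966-122867397 on the plus strand. Myof (ENSMUSG00000048612) lies at chr19:37899036-38043577 on the minus strand. On the plus strand, Dock1 (ENSMUSG00000058325) lies at chr7:134670654-135173639 and Trim72 (ENSMUSG00000042828) at chr7:128003949-128011033. Cav3 (ENSMUSG00000062694) lies at chr6:112459505-112472872 and Dysf (ENSMUSG00000033788) at chr6:84008590-84211060, both on the plus strand. The libraries did not keep the strand, so reads of overlapping genes cannot be told apart. Mymk, Myof and Cav3 overlapped no other annotated gene. Genes overlapping Cdh15, Dock1, Dysf and Trim72 reached at most 0.58 FPKM in any sample (Gm33024, in Dysf), and within Dock1 the highest was Gm45597 at 0.34 FPKM.

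Promoters of 300 bases from RefSeq (GRCm38.p6) were at hand for 6 of the 7 genes, with 7 promoters in all, and not for Mymk. They were searched for CANNTG, the E-box letters that myogenic factors such as MyoD and myogenin can bind, for its special case CAGCTG, and for the MEF2 and CArG motifs, on both strands. CANNTG occurred 4 times for Cdh15, 3 times for Trim72, 2 times for Cav3, once for Dock1 and once in 1 of the promoters of Dysf, and it was not in the windows of Myof or the other Dysf promoter. Of 32851 promoters of this length, 72.3% held at least 1 match, 17.6% held 3 or more and 6.49% held 4 or more. CAGCTG occurred in the window of Cav3 alone, beside 16.3% of all promoters. MEF2 and CArG matches were found in none of the 7, beside 3.19% and 1.63% of all promoters. A match is a description of letters and not of binding. The windows with 2 or more matches are printed to show where the letters lie, 5′ to 3′ on the strand of the gene, in lower case with CANNTG matches in capitals. All are on the plus strand, Cdh15 from chr8:122848124-122848423, Trim72 from chr7:128004128-128004427 and Cav3 from chr6:112459255-112459554. By the gene positions given above, the windows of Cdh15 and Trim72 lie wholly within the gene, past its start, and that of Cav3 spans its start.
Cdh15: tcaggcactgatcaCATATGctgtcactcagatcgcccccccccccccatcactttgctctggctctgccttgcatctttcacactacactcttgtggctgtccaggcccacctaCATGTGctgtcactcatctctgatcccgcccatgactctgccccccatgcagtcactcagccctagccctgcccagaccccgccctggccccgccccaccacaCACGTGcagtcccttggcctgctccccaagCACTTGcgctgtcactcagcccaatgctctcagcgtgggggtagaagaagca
Trim72: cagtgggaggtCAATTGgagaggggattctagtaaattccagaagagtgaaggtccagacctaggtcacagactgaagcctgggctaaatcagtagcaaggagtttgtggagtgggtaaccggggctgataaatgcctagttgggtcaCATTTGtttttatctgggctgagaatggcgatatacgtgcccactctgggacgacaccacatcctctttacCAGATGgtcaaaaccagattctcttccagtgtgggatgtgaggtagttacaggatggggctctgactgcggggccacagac
Cav3: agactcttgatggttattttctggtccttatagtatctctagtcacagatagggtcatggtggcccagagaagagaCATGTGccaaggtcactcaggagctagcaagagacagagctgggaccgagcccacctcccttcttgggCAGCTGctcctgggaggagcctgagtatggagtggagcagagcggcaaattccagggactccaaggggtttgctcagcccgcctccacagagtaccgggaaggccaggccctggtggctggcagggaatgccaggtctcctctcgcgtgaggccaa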

How the data were processed

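The authors sequenced polyA RNA of 27 tibialis anterior muscles and deposited a table of FPKM with gene names, positions and lengths. The submitters' processing notes name HISAT2 2.0.5 and featureCounts 1.5.0-p3. The genome build and annotation were not given in the sources used here. Reads recovered from FPKM, gene length and 1 scaling factor per sample gave the depth of each sample. The 7 genes and all lists were chosen with earlier results of these data known. Genes with an FPKM of 0.5 or more in 5 or more samples were tested on log2(FPKM + 1), with a pseudocount of 1, by limma 3.58.1 (R 4.3.3) with a variance trend, in 1 fit over 27 samples and 5 groups. P-values were adjusted by Benjamini-Hochberg within a comparison, and the comparisons with uninjured muscle share their controls. The fit was tested on simulated data. Python 3.11.15 with pandas 2.3.3, numpy 2.4.6, scipy 1.17.1 and matplotlib 3.10.9 made the other values and figures.

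Named genes were the 7 genes, 21 genes always named, the 3 called genes with the largest rise and fall per pathway list at day 3 and day 21, the 3 genes most correlated with each of the 7, and marker genes. For Dysf, 1 of these 3 is not reported here. Vps4a, Vamp7, Cdh2 and Pla2g4a were named after their values were seen, to complete counts. So were Chmp4b, Capns1 and Boc, for calls lost with 1 sample left out. There were 3 pathway lists (fusion, repair, caveolae) and 11 marker lists (fibre, myoblast, macrophage, fibroblast, endothelial, smooth muscle, Schwann, tendon, adipocyte, red blood cell, keratinocyte). Alternatives were each of 27 samples left out and 15 others, of which 2 were chosen after seeing the data. These were other pseudocounts, filters and scalings, limma without the trend, blocks by number or letter, only the groups compared, voom weights on recovered reads, and sets of samples left out. Motif letters were searched in promoters from RefSeq. Proteins were not analysed here.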

Additional observations from a re-analysis of the deposited data

Results flagged for a closer look

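In 40 groups of values (the 7 genes and the ferlin share in 5 groups each), the highest or lowest sample was compared with its nearest neighbour and the range of its group, by Dixon's ratio. It stood far from the others in 8 of the 40, by a limit that about 1 in 20 separate groups passes by chance. The genes were measured in the same samples, and the share is computed from Myof and Dysf. The genes were also chosen from these values, so nothing is read from the number of such groups. On the log2(FPKM + 1) scale, Mymk was high in uninjured replicate 3 (0.70), low in day 3 replicate 5 (4.62) and low in day 14 replicate 6 (2.84). Cdh15 was high in day 7 replicate 5 (4.25), and so was Myof (2.60) in the same sample. Dock1 was high in uninjured replicate 5 (0.92) and Cav3 in day 3 replicate 2 (7.07). The Myof share of the ferlin pair was high in day 7 replicate 5 (38.3%). The cause was not tested.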

How the results depend on the processing

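Of the counts of calls, 746 stayed within 1.5 times the count given and 94 moved further. Of the log2 differences of the 7 genes, 2295 moved by less than the SD of samples within groups and 57 by more. None of those that would be called with the settings used in the Results changed sign. Cav3 at day 3, which would not be called with them, turned from -0.01 to 0.80 with the common sum, where all 7 genes would be called. Of the ferlin shares, 28 moved by less than the SD and 4 by more. The scaling between samples limits small differences, and few reads limit Mymk in uninjured muscle. Where no construction is named, the cause was not tested.

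With the common sum per sample, the fusion list had 23 calls at day 7, 0 at day 21 and 19 for day 21 versus day 3, and the repair list 21, 0 and 18. The caveolae list had 5, 4, 2 and 0 calls at day 3, day 7, day 14 and day 21. Of all tested genes, 43.1% were higher and 1.43% lower at day 7. For day 21 versus day 3 these shares were 1.16% and 33.1%. Of the 7 genes, 7, 1 and 0 would be called at day 3, day 14 and day 21, where 46.9%, 11.5% and 0.287% of all tested genes were higher and 2.2%, 0.731% and 0.0478% lower. The log2 differences at day 3 were 1.76 for Cdh15, 2.12 for Myof, 0.93 for Dock1, 0.80 for Cav3, 0.95 for Dysf and 1.12 for Trim72. At day 7 they were 0.67 for Cdh15, 0.93 for Dock1, 0.42 for Cav3, 0.63 for Dysf and 0.81 for Trim72, and at day 14 -0.13 for Cav3 and 0.66 for Dysf. These shifts include the shift of the median of all genes.

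With quantile normalization the fusion list had 7 calls at day 7 and 1 at day 21, the repair list 0 at day 21, and the caveolae list 1, 2 and 0 at day 7, day 14 and day 21, and 1 of the 7 genes would be called at day 14 (6.88% of all tested genes higher and 8.91% lower). Without a filter, which tests more genes, the fusion, repair and caveolae lists had 0 calls at day 21 and 1 of the 7 genes would be called at day 14 (3.09% of all higher and 3.99% lower). When each fit held only the samples it compared, the fusion list had 8 calls at day 7 and the repair list 11 at day 21, and 4 and 2 of the 7 genes would be called at day 14 (12.8% of all higher and 12.8% lower) and day 21 (5.17% and 4.92%). With voom weights on recovered reads, the lists had 0, 1 and 0 calls at day 21 and 0 of the 7 genes would be called there (0.977% of all higher and 0.95% lower). The log2 differences at day 3, day 7, day 14 and day 21 were then 8.25, 5.70, 6.07 and 5.38 for Mymk and 3.50, 2.51, 1.57 and 0.89 for Myof, and for Dock1 they were 1.24 and 1.29 at day 3 and day 7. With a pseudocount of 0.1 they were 7.77, 4.97, 5.55 and 4.86 for Mymk, 3.11, 2.11, 1.29 and 0.75 for Myof, and 1.09 and 1.14 for Dock1. With a pseudocount of 0.5 they were 2.23 and 1.40 for Myof at day 3 and day 7. A smaller pseudocount shrinks low values less.

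Without both day 3 replicate 5 and day 7 replicate 5, the fusion list had 8 calls at day 7 and the repair list 4 at day 21, and 4 and 2 of the 7 genes would be called at day 14 (11.6% of all higher and 12.4% lower) and day 21 (2.52% and 2.28%). Without day 7 replicates 3 and 6, chosen after seeing the data, the repair list had 6 calls at day 21 and Mymk differed by 4.54 at day 7. Without day 7 replicates 3, 5 and 6, also chosen after seeing the data, the fusion list had 4 calls at day 21 and 15 for day 21 versus day 3, the repair list 8 at day 21, and the caveolae list 2 at day 14, and 4 of the 7 genes would be called at day 14 (12.5% of all higher and 14.1% lower). Nothing is read from these counts of the 7 genes. As shares of reads, Myof made up 4.71%, 32.7%, 11.1% and 7.50% of the ferlin pair in uninjured muscle, at day 3, day 14 and day 21, since reads also count gene length.

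With 1 sample left out, calls ran from 7 to 16 for fusion at day 7, 0 to 3 at day 21 and 5 to 12 for day 21 versus day 3. They ran from 0 to 4 for repair at day 21, and for caveolae at day 14, at day 21 and for day 21 versus day 3 from 1 to 2, 0 to 1 and 1 to 3. Of the 7 genes, 1 to 4 would be called at day 14, with 1 without uninjured replicate 1, 2, 3 or 5 or day 14 replicate 1, 4 or 5, and 4 without day 7 replicate 5. In these fits 5.71% to 10.8% of all tested genes were higher and 7.25% to 12.1% lower at day 14, and nothing is read from the counts of the 7 genes.

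With the replicate number as a replicate block, the repair list had 4 calls at day 21 and the caveolae list 2 at day 14. With the replicate letter as a replicate block, the fusion list had 5 calls for day 21 versus day 3 and the repair list 7 at day 21. The 51 pairs of samples sharing a number had correlations of deviations from -0.52 to 0.57, with a median of -0.0031, and 15 were over 0.1. For the 49 pairs sharing a letter the median was 0.02, and 15 were over 0.1.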

Other observations

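Markers of other cell types in the same muscles were counted with limma against uninjured muscle. Of 6 fibroblast markers, 5, 4, 4 and 1 were higher after 3, 7, 14 and 21 days and 0 were lower, the latter also at an unadjusted p under 0.05 and with voom weights. Their summed level was 130 ± 19.9 FPKM (SD, n = 5) in uninjured muscle, 515 ± 122 (SD, n = 5) at day 3, 532 ± 196 (SD, n = 6) at day 7, 300.4 ± 106 (SD, n = 6) at day 14 and 175 ± 28.3 (SD, n = 5) at day 21. Col1a1, a chain of type I collagen, was the most abundant after injury and was the marker called at day 21 (log2 difference 1.44, limma adjusted p = 0.0392, higher in 5 of 5 samples). That call was lost with the common sum per sample and with quantile normalization. It was also lost without uninjured replicate 3, 4 or 5 or day 21 replicate 1, 2, 3 or 5.

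Of 5 endothelial markers, 2 were lower at day 3 and 1 at each later time, and 0 were higher, also unadjusted and with voom weights. The marker lower at all 4 times was Kdr, a receptor for vascular endothelial growth factor, with log2 differences of -1.33, -1.43, -0.87 and -0.90. With the common sum, 1 was higher and 1 lower at day 3 and at day 7, and 0 were called at day 14 and day 21, while quantile normalization kept all the lower calls. With the deposited scaling, the 2 calls of day 3 became 1 without day 3 replicate 3 or 4. Of 5 smooth muscle markers, 1 was higher (Acta2) and 2 lower (Rgs5 and Myh11) at day 3 and 1 lower at day 7. Limma called 0 at day 14 and day 21, also unadjusted and with voom weights. At day 3 and at day 7, 2 were higher and 0 lower with the common sum. Quantile normalization kept the 3 calls of day 3 and gave 0 at day 7. The day 7 call was lost without uninjured replicate 1, 2, 3 or 4 or day 7 replicate 1, 3, 4 or 5, and 2 were called without day 7 replicate 6.

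Of 3 tendon markers tested of 4, 1 (Scx) was higher at day 3, day 7 and day 14, and 2 were higher at day 7 with the common sum. Limma called 0 at day 21, where 1 was higher unadjusted and 0 with voom weights. The day 14 call was lost with voom weights and without uninjured replicate 4 or 5 or day 14 replicate 2 or 4. Of 2 adipocyte markers tested of 3, limma called 2 higher at day 7 and 0 at the other times, also unadjusted, and 0 with voom weights at any of these times. Of these 2, Plin1 was under 0.5 FPKM in all uninjured samples. Lep was at 0 in all day 3 samples. Of 4 Schwann cell markers tested of 5, limma called 0 at each time, with 1 lower at day 3 unadjusted, and 0 with voom weights. Without day 7 replicate 6, 1 was called at day 3 and 1 at day 7, and 1 was called at day 3 without uninjured replicate 4 or day 7 replicate 1 or 5. The summed Schwann markers reached 742 FPKM in day 7 replicate 6, where the other day 7 samples lay between 1.68 and 86.6. The same sample had the highest sum of red blood cell markers, 1116 FPKM, beside 55.9 to 378 in the others of day 7. Of the 4 red blood cell markers and the 1 keratinocyte marker tested of 3, limma called 0 at each time, also unadjusted and with voom weights. Krt5 and Krt14 were at 0 in all groups except day 3. The part of these cells in the levels of the 7 genes was not tested.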
